A study of Mus musculus with 16 samples.

Results

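The insulin signalling genes described here are 9 genes that carry the signal from the insulin receptor to glucose uptake and to gene transcription in fat: Insr, Irs1, Irs2, Pik3r1, Akt1, Akt2, Foxo1, Tbc1d4 and Grb14. They were found by gene symbol in the authors' deposited comparison tables and joined by Ensembl identifier to the deposited table of fragment counts, which holds 55487 genes. All 9 were found, and all 9 were among the 16549 genes that passed the filter on low counts. The fat came from the inguinal depot, a white depot under the skin, of male mice aged 6 to 7 months. Mice lacking Kmo in the whole body (KO) were set beside wild-type littermates (WT), each on chow or on a high-fat diet (HFD), with 4 animals in each of the 4 groups. Kmo encodes kynurenine 3-monooxygenase, an enzyme of tryptophan breakdown. The knockout allele, the make of the diets and the time on them are not given in the sources used here.

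Insulin binds a receptor tyrosine kinase on the adipocyte surface. The active receptor phosphorylates insulin receptor substrate (IRS) proteins, which dock phosphoinositide 3-kinase (PI3K), and the lipid that PI3K makes brings AKT kinases to the membrane to be switched on. AKT then phosphorylates TBC1D4, which releases vesicles carrying the glucose transporter GLUT4 to the cell surface, and FOXO1, which leaves the nucleus and stops driving its target genes. Much of this signalling is phosphorylation, which RNA levels do not report.

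The 16 libraries held between 13824404 and 16909361 fragments assigned to genes. Kmo itself had between 40 and 298 counts in the 8 WT libraries and between 1 and 8 in the 8 KO libraries, so every library matched its genotype label. The adipocyte markers were abundant in all libraries, with Adipoq between 1610 and 3278 CPM (counts per 1000000 assigned fragments, each total scaled by its TMM factor) and Plin1 between 1872 and 2852. Libraries also differed in lymphoid RNA: the mean log2 CPM of 14 T and B cell markers ran from -0.95 to 5.69. It was above 4 in 6 libraries, namely WT chow 2 and 4, KO chow 1 and 3, WT HFD 2 and KO HFD 1. Only Cd8a among those markers was at 0 in any library, in 1 of the 16. Skeletal muscle RNA differed as well. The muscle score, the mean log2 CPM of skeletal muscle markers, ran from 0.71 to 9.07, and Myh4 from 1.6 to 1602 CPM. This score was 5.27 ± 3.1 in WT chow and 3.67 ± 3.34 in KO chow (SD, n = 4). It was 5.65 ± 2.11 in WT HFD and 3.54 ± 2.07 in KO HFD. The part of muscle RNA in the levels reported here was not tested. In whole tissue, fewer cells of a type and less RNA per cell cannot be told apart.

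None of the 9 genes passed the test between genotypes, whether within a diet or pooled over diets. In the diet comparisons Irs2 was the only member that passed, and only when both genotypes were pooled. Irs2 was 1.45-fold higher on HFD, with a log2 fold change of 0.53 (SE 0.17, 95% interval 0.17 to 0.89, 8 against 8 libraries, adjusted p = 0.0249). All adjusted p-values in the fold-change statements come from edgeR's quasi-likelihood test with Benjamini-Hochberg adjustment over all 16549 genes, and a gene was called when its adjusted p was below 0.05. Over both genotypes 33.1% of all genes tested were called between diets, 17.1% as higher on HFD, so 1 called member of 9 was below the background share.

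**Figure D1:**
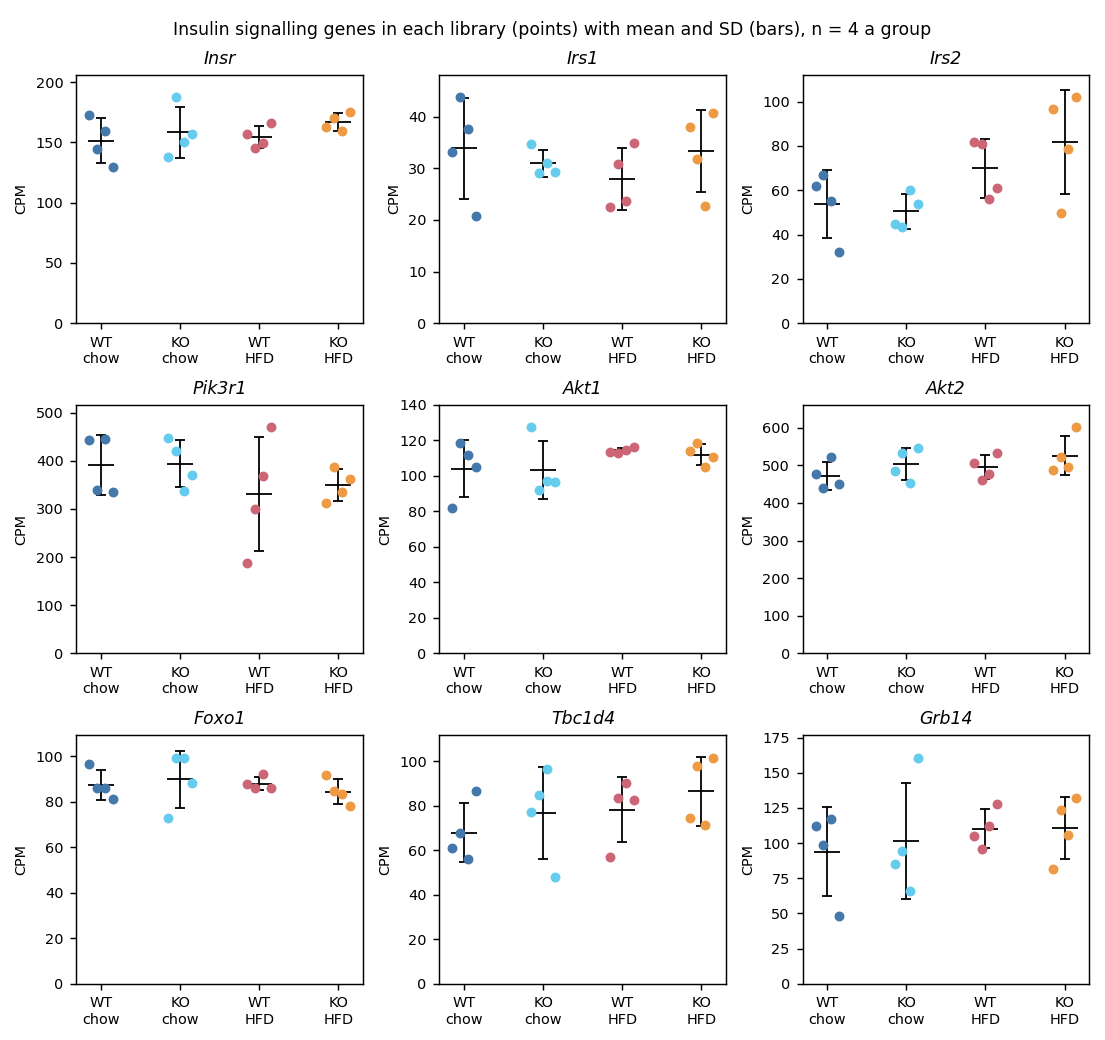
Each panel plots 1 member's CPM (vertical axis, from 0) in the 4 groups, with a point for each library and a bar for the mean and SD of 4. Irs2 reached 102 CPM on HFD against at most 66.7 on chow, while Akt2 sat in a narrow band in every group. Foxo1 ran from 72.7 to 99.4 in KO chow, and Grb14 ranged from 48.1 to 161 within the chow libraries.

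Levels between genes are compared per length, in TPM (transcripts per 1000000), a measure that corrects counts for gene length. Akt2 was the most abundant member at 226 ± 18.9 TPM (SD over 16 libraries), above 96.5% of the genes tested. Pik3r1 followed at 117 ± 19.5 TPM and Akt1 at 85.9 ± 10.98 TPM. Akt2 exceeded Pik3r1 in 16 of 16 libraries and Pik3r1 exceeded Akt1 in 15 of 16. Grb14 came next at 46.9 ± 12.4 TPM, below Akt1 in 16 of 16 libraries.

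Members 5 to 8 in that order followed at nearly equal levels. Insr stood at 37.1 ± 3.0 TPM, Irs2 at 33.0 ± 10.6 TPM, Tbc1d4 at 32.7 ± 7.2 TPM and Foxo1 at 32.6 ± 3.1 TPM. Their order was not stable over libraries, since Insr exceeded Irs2 in 10 of 16, Irs2 exceeded Tbc1d4 in 9 of 16 and Tbc1d4 exceeded Foxo1 in 8 of 16. Grb14 in turn exceeded Insr in 12 of 16. Irs1 was the least abundant member at 11.1 ± 2.4 TPM, below Foxo1 in 16 of 16 libraries and near the middle of all genes tested (above 47.4%).

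**Figure D2:**
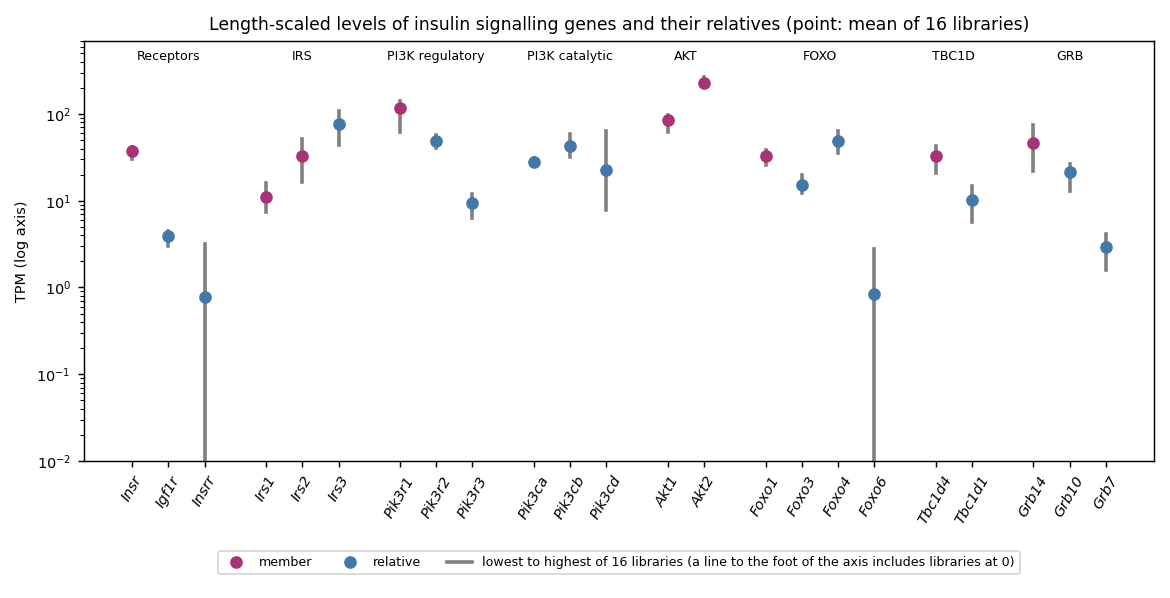
Mean TPM over 16 libraries (points, log axis) with the lowest and highest library (lines) for members and for relatives of the same protein family. Within their families Insr, Pik3r1, Akt2, Tbc1d4 and Grb14 had the highest mean, while Irs1 and Irs2 lay below Irs3 and Foxo1 lay below Foxo4.

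The receptor gene Insr (Ensembl ENSMUSG00000005534, GRCm38 chr8:3122061-3279617, minus strand) encodes the protein that binds insulin. Its level was 172, 145, 159 and 129 CPM in WT and 138, 187.5, 151 and 157 in KO on chow, and 157, 145, 150 and 166 in WT and 163, 170, 159 and 175 in KO on HFD. The 4 groups overlapped, and the HFD libraries lay inside the range of the chow libraries. The diet difference over both genotypes was 0.05 on the log2 scale (95% interval -0.11 to 0.21, adjusted p = 0.61). Insr varied little between animals of a group, with a within-group SD of 0.14 on the log2 CPM scale, against a median of 0.19 for genes of like abundance.

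The 2 other receptors of the family were far lower than Insr. Igf1r, the receptor for insulin-like growth factor 1, had 3.91 ± 0.50 TPM and a diet difference of -0.04 on the log2 scale (SE 0.08, adjusted p = 0.73). Insrr, an orphan relative of the insulin receptor, had 0.77 TPM on average and fell on HFD, with a log2 fold change of -2.67 (SE 0.74, adjusted p = 0.0139). Its CPM was between 0.63 and 5.62 on chow, with a median of 1.71, and between 0 and 1.27 on HFD, with a median of 0.13. KO HFD 1 held the highest of the HFD values, and without it the log2 fold change of Insrr was -4.05. With the adipocyte score as a covariate it was -1.36 and did not pass the test (adjusted p = 0.0844).

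Irs1 (ENSMUSG00000055980, chr1:82233101-82291416, minus strand) and Irs2 (ENSMUSG00000038894, chr8:10984681-11008458, minus strand) encode the substrates through which the receptor reaches PI3K. Both RefSeq promoters are shown because these paralogues share a motif, the E-box CACGTG, in the 250 bases before the RefSeq start. It is a palindrome that basic helix-loop-helix factors such as USF, MYC and SREBP1 can bind. The sequences below run 5′ to 3′ on the gene's strand (RefSeq, GRCm38.p6, at chr1:82291440-82291689 and chr8:11008930-11009179, both minus strand), with the E-box in capitals.
Irs1: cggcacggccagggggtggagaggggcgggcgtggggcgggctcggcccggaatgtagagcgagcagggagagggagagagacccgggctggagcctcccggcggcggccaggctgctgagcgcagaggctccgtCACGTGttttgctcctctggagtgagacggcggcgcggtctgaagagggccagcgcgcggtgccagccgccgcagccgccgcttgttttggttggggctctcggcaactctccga
Irs2: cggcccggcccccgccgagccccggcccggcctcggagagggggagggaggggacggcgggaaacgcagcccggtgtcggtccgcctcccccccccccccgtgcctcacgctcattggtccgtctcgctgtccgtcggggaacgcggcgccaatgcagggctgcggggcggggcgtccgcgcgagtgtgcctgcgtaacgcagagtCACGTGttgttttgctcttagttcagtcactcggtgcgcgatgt

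The E-box lay 115 bases before the start of Irs1 and 44 bases before the start of Irs2, and 6.02% of the 32817 mouse promoters of this length hold at least 1. G and C made up 72.4% of the Irs1 bases and 72.8% of the Irs2 bases, against a median of 52.4% over all promoters. The 6.02% share was not matched for this. Promoter entries matched 8 of the 9 members, with 13 start sites in all, and no other member promoter held the E-box. The FOXO core motif GTAAACA, read on both strands, was found in 1 of the 13, before the first start of Akt1 (161 bases), and in 3.16% of all promoters. The cAMP response element TGACGTCA was found in none of the 13 and in 1.55% of all promoters. These are matches of letters, and no file here measured binding at them.

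Irs2 was the member that moved with diet. It had 61.8, 66.7, 55.2 and 32.1 CPM in the WT chow libraries and 44.9, 43.5, 60.1 and 53.7 in KO chow. On HFD it had 82.0, 80.8, 56.1 and 61.2 CPM in WT and 96.5, 49.7, 78.6 and 102 in KO. Of the 8 HFD libraries 5 were above the highest chow library, and KO HFD 2 lay below the chow median, so the diets overlapped.

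Within each genotype the diet difference of Irs2 did not pass the test. It was 0.38 on the log2 scale in WT (SE 0.24, 95% interval -0.13 to 0.88, adjusted p = 0.31), where 11.8% of all genes were called. In KO it was 0.69 (SE 0.24, 95% interval 0.18 to 1.20, adjusted p = 0.0694), where 12.5% of all genes were called. Both shares moved in either direction when a single library was left out. In WT the 1957 called genes became 689 to 1064 in the fits without WT chow 1, WT chow 4, WT HFD 2 or WT HFD 3. They became 2400 without WT chow 3. In KO the 2071 became 745 to 1062 without KO chow 2, KO chow 3, KO HFD 2, KO HFD 3 or KO HFD 4. They became 2714 without KO chow 4. No other member was called in either genotype, and at an unadjusted p under 0.05 there was 1 member (Irs2) in KO and 0 in WT. Of all 16549 genes 4951 did so in KO and 4867 in WT, so both member counts were below the background share. The difference between both genotypes' diet responses was 0.32 (SE 0.34, 95% interval -0.40 to 1.03), and its adjusted p was 0.9999.

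The pooled Irs2 difference was close to the limit of the test. Without KO HFD 4, the library with the highest value, it was 0.48 with an adjusted p of 0.0521. Among the 10 libraries with a lymphoid score under 4 it was 0.41 (adjusted p = 0.15), and with the adipocyte score as a covariate it was 0.47 (adjusted p = 0.11). The adipocyte score, the mean log2 CPM of 6 adipocyte markers, on chow was 11.2 ± 0.27 for WT and 11.2 ± 0.18 for KO, and on HFD it was 11.4 ± 0.18 for WT and 11.4 ± 0.12 for KO (SD, n = 4). The gene 9530052E02Rik overlaps an exon of Irs2 and held 177 counts over all libraries, against 15784 for Irs2, and the counting did not use strand.

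Irs1 showed no such shift. It had 33.2, 43.8, 37.6 and 20.8 CPM in WT and 34.6, 29.1, 30.9 and 29.2 in KO on chow, and 22.4, 30.8, 23.6 and 35.0 in WT and 38.0, 31.8, 22.7 and 40.7 in KO on HFD. Every HFD library lay within the range of the chow libraries. The diet difference over both genotypes was -0.09 on the log2 scale (SE 0.15, 95% interval -0.41 to 0.24, adjusted p = 0.69).

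Irs3, a substrate of rodent adipocytes, was higher than both per length, at 77.0 ± 19.6 TPM. It rose on HFD by 0.52 on the log2 scale (SE 0.13, adjusted p = 0.00642), beside 0.53 for Irs2. Its CPM was between 31.5 and 64.7 on chow, with a median of 44.3, and between 50.1 and 75.0 on HFD, with a median of 67.3. With the adipocyte score as a covariate it was 0.25 higher (adjusted p = 0.0527). Irs4 had 0 counts in all 16 libraries, which allows up to 3 counts in a library when counting error alone is considered.

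As a description with no test, the ratio of Irs2 to Irs1 in TPM was 2.31 ± 0.25 in WT chow and 2.38 ± 0.43 in KO chow (SD, n = 4). It was 3.76 ± 1.15 in WT HFD and 3.64 ± 1.12 in KO HFD. Irs3 to Irs1 was 5.47 ± 1.20 and 5.74 ± 1.08 on chow in WT and KO, against 9.40 ± 2.585 and 8.25 ± 2.72 on HFD. The ratios in HFD libraries spread more widely and overlapped those on chow.

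**Figure D3:**
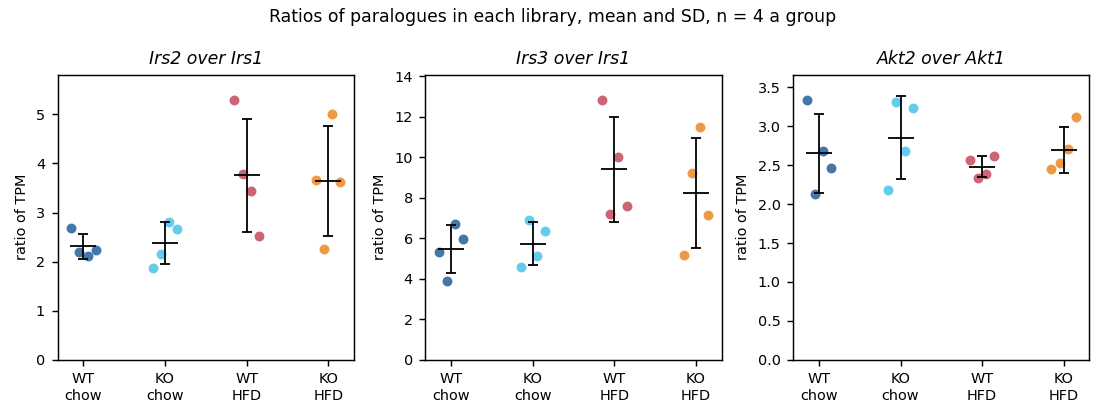
Ratios of TPM between paralogues (vertical axes, from 0) in each library by group, with the mean and SD of 4 libraries. Irs2 over Irs1 and Irs3 over Irs1 were on average higher in the HFD groups, and Akt2 over Akt1 stayed between 2.13 and 3.33 in the 16 libraries.

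Pik3r1 (ENSMUSG00000041417, chr13:101680563-101768217, minus strand) encodes p85 alpha, the regulatory subunit that binds phosphorylated IRS proteins and holds the catalytic subunit. It had 444, 340, 445 and 335 CPM in WT and 447, 421, 337 and 371 in KO on chow, and 189, 300, 369 and 469 in WT and 313, 388, 335 and 362 in KO on HFD. WT HFD 1 had the lowest value of the 16 libraries and WT HFD 4 the highest. The diet difference over both genotypes was -0.21 on the log2 scale (SE 0.15, 95% interval -0.52 to 0.11, adjusted p = 0.30).

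The other PI3K subunits were lower per length than Pik3r1. Pik3r2 had 49.0 ± 4.9 TPM and Pik3r3 9.35 ± 1.69 TPM among regulatory subunits, and the catalytic subunit genes Pik3ca, Pik3cb and Pik3cd had 28.2 ± 1.8, 42.6 ± 9.2 and 22.4 ± 18.1 TPM. Of these 5 genes only Pik3cb, which encodes p110 beta, was called between diets. Pik3cb was higher on HFD by 0.38 on the log2 scale (SE 0.11, adjusted p = 0.0150), with 69.3 to 105 CPM on chow and 83.8 to 134 on HFD. Its adjusted p was 0.0574 in the libraries with a lymphoid score under 4 and 0.11 with the adipocyte score as a covariate. Pik3cd ran from 7.9 to 63.1 TPM over the 16 libraries, and the part of lymphoid RNA in its level was not tested. Pik3ca, which encodes p110 alpha, had 78.5 ± 5.3 CPM on chow and 80.1 ± 4.9 on HFD (SD, n = 8; log2 fold change 0.03, adjusted p = 0.73).

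Akt1 (ENSMUSG00000001729, chr12:112653821-112674884, minus strand) and Akt2 (ENSMUSG00000004056, chr7:27591552-27640826, plus strand) encode the kinases below PI3K, and AKT2 is the form best known for glucose uptake in fat and muscle. Akt2 was 476, 439, 522 and 449 CPM in WT and 485, 532, 454 and 545 in KO on chow, and 507, 461, 476 and 532 in WT and 486, 522, 494 and 601 in KO on HFD. It had the smallest within-group spread of the 9, with an SD of 0.12 on the log2 CPM scale, against a median of 0.23 for genes of like abundance. The diet difference was 0.06 on the log2 scale (SE 0.07, 95% interval -0.09 to 0.22, adjusted p = 0.52).

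Akt1 was 82.0, 118, 112 and 105 CPM in WT and 127, 92.2, 97.3 and 96.6 in KO on chow, and 113, 113, 114 and 117 in WT and 114, 119, 105 and 111 in KO on HFD. Every HFD library was above the chow median of 101 CPM and below the highest chow library. The diet difference was 0.13 on the log2 scale (SE 0.08, 95% interval -0.05 to 0.30, adjusted p = 0.25), and 0.24 (adjusted p = 0.0802) in the libraries with a lymphoid score under 4. Akt2 exceeded Akt1 per length by 2.48 to 2.86 times on average in the 4 groups.

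Foxo1 (ENSMUSG00000044167, chr3:52268336-52353221, plus strand) encodes the transcription factor that AKT keeps out of the nucleus. Its mean was 87.4 ± 6.6 CPM in WT and 89.8 ± 12.5 in KO on chow, and 87.9 ± 2.8 in WT and 84.4 ± 5.5 in KO on HFD (SD, n = 4). The libraries ran from 72.7 to 99.4 on chow and from 78.2 to 91.9 on HFD, the latter inside the former. Its diet difference of -0.04 on the log2 scale had the narrowest 95% interval of the members, -0.19 to 0.10 (adjusted p = 0.67).

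Tbc1d4 (ENSMUSG00000033083, chr14:101442360-101609191, minus strand), also known as AS160, encodes the Rab GTPase-activating protein that retains GLUT4 vesicles until AKT phosphorylates it. Its mean was 68.0 ± 13.3 CPM in WT and 76.7 ± 20.7 in KO on chow, and 78.2 ± 14.7 in WT and 86.5 ± 15.6 in KO on HFD. Values ran from 48.1 to 96.7 on chow and from 56.8 to 102 on HFD, so the diets overlapped. The diet difference was 0.19 on the log2 scale (SE 0.15, 95% interval -0.12 to 0.50, adjusted p = 0.34). It was 0.41 with the adipocyte score as a covariate (adjusted p = 0.0672) and 0.41 in the libraries with a lymphoid score under 4 (adjusted p = 0.15). The paralogue Tbc1d1 was lower per length, at 10.2 ± 2.7 TPM.

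Grb14 (ENSMUSG00000026888, chr2:64912476-65024987, minus strand) encodes an adaptor that binds the active insulin receptor and inhibits its kinase. It was the most variable member within groups, with an SD of 0.44 on the log2 CPM scale, against a median of 0.18 for genes of like abundance. It had 112, 98.6, 117 and 48.1 CPM in WT and 85.2, 94.6, 65.6 and 161 in KO on chow, and 105, 95.7, 112 and 128 in WT and 81.9, 124, 105 and 132 in KO on HFD. Both extremes of the 16 libraries were on chow. The diet difference was 0.18 on the log2 scale (SE 0.20, 95% interval -0.25 to 0.60, adjusted p = 0.51).

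Members were also set beside the lymphoid score within each diet. The 4 chow libraries with a score above 4 had 129 to 151 CPM of Insr, and the other 4 had 157 to 187.5, with no overlap. On HFD Insr overlapped, at 145 to 163 CPM in the 2 libraries above 4 and 150 to 175 in the other 6. Grb14 was 48.1 to 98.6 against 94.6 to 161 CPM on chow, with overlap, and 81.9 to 95.7 against 105 to 132 on HFD, without. In the same splits 18% of all genes on chow and 20.2% on HFD had no overlap, so 1 of 9 members on each diet was no more than the background share. The mean score was 3.19 ± 2.61 in WT and 2.93 ± 2.59 in KO on chow, and 1.19 ± 2.23 in WT and 1.15 ± 2.45 in KO on HFD. With the score as a covariate the diet difference of Grb14 was -0.05 on the log2 scale in place of 0.18, and it did not pass the test in either fit. With the adipocyte score as a covariate the diet differences of Insr, Akt2 and Grb14 turned to -0.07, -0.04 and -0.20, none of them called. The part of lymphoid RNA in the level of Insr was not tested.

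For the genotype question, whether loss of Kmo shifts insulin signalling transcripts, all 9 members had an adjusted p of 1 in each comparison. A single gene of 16549, Kmo itself, was called in each of the 3 genotype comparisons, a background of 0.00604%. On chow the members' log2 fold changes, KO against WT, lay between -0.13 (Irs1) and 0.18 (Tbc1d4). On HFD they lay between -0.06 (Foxo1) and 0.25 (Irs1). Over both diets they lay between -0.02 (Akt1) and 0.16 (Tbc1d4), with a median of 0.06 beside 0.00 over all genes.

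None of the members had an unadjusted p under 0.05 for genotype. Of all 16549 genes 166 did within chow, 188 within HFD and 165 with the diets pooled, so 0 of 9 was near the background share. DESeq2 also called 0 of the 9 and 1 gene in all in each comparison. Limma-voom with sample quality weights called 0 of the 16549 genes, Kmo included, so its 0 of 9 says nothing about the members. The 95% intervals show what this design could still miss. Over both diets they ran from -0.06 to 0.25 for Akt2, from -0.07 to 0.25 for Insr, from -0.16 to 0.14 for Foxo1 and from -0.20 to 0.15 for Akt1. For the more variable genes they were wider: -0.29 to 0.42 for Irs2, -0.26 to 0.39 for Irs1, -0.27 to 0.36 for Pik3r1, -0.15 to 0.47 for Tbc1d4 and -0.36 to 0.48 for Grb14. The authors' deposited tables for KO against WT likewise call 1 gene on each diet.

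No difference in diet response between the genotypes was detected. For the interaction 0 of 9 members and 0 of 16549 genes were called by edgeR, a background of 0%, with an adjusted p of 0.9999 for each member. Before adjustment 187 of the 16549 genes and no member had a p under 0.05, so 0 of 9 was near the background share. The largest member difference was that of Irs1, at 0.38 on the log2 scale (SE 0.31, 95% interval -0.27 to 1.03), since Irs1 was -0.28 in WT and 0.10 in KO between diets, neither called.

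**Figure D4:**
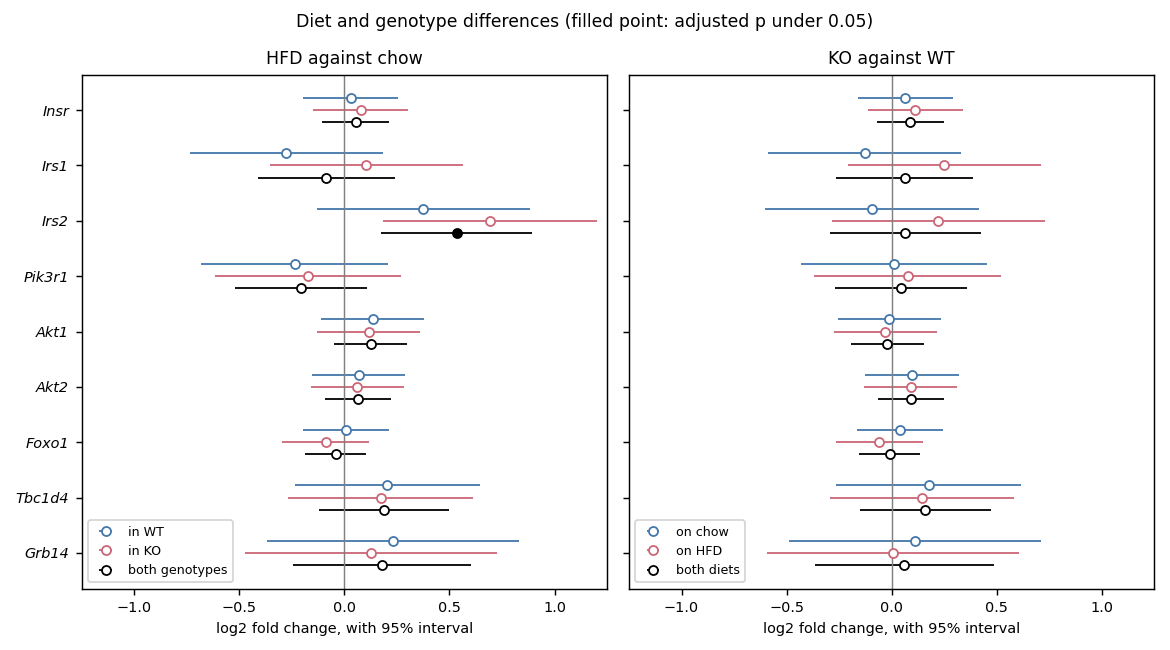
Log2 fold changes of the 9 members with 95% intervals, HFD against chow on the left and KO against WT on the right, in single strata (coloured) and pooled (black). The filled point marks Irs2 over both genotypes, 0.53, the only one with an adjusted p under 0.05; in the genotype panel every interval spans 0.

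Around the members, 79 further genes of the pathway were listed by role and 78 could be tested. The lists were chosen with earlier results of these data known, so their counts are a description. Over both genotypes 15 of the 78 were higher on HFD and 16 were lower, beside 33.1% of all genes called in either direction. Of all 16549 genes 2827 were higher and 2644 lower, which is also the background for the counts by role below. Their median log2 fold change was -0.01, against -0.04 over all genes, and that of the 9 members was 0.06. The beige adipocyte score, the mean log2 CPM of 4 markers (Ucp1, Cidea, Cox8b and Elovl3, none at 0 in any library), also differed by diet. On chow it ran from 3.75 to 6.73 among WT libraries and from 4.18 to 6.85 among KO libraries. The HFD libraries lay lower without overlap, with 2.02 to 3.38 for WT and 1.67 to 2.91 for KO. Its part in the diet differences of Irs2 and of the listed genes was not tested. With upper-quartile scaling, which gave 2309 higher and 3298 lower genes of all tested against 2827 and 2644, the listed genes counted 13 higher and 17 lower. In the genotype comparisons and the interaction 0 of the 78 were called by edgeR or DESeq2. Before adjustment 1 of them had a p under 0.05 within chow, 0 within HFD, 0 with the diets pooled and 1 for the interaction. In the same order 166, 188, 165 and 187 of all 16549 genes did.

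Of 11 adaptor genes tested 4 were higher and 2 lower on HFD, with a median log2 fold change of 0.19. Gab1, an IRS-like docking protein, rose by 0.59 (SE 0.09, adjusted p = 0.000407), with 23.7 to 35.0 CPM on chow, 36.4 to 50.7 on HFD and no overlap. Sh2b2, the adaptor APS, fell by 0.65 (SE 0.12, adjusted p = 0.000949), with a median of 64.1 CPM on chow and 43.7 on HFD. Across all genes 6.85% had no overlap between the diets.

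Of 10 kinases and kinase partners beside and below PI3K 4 were higher and 1 lower, with a median of 0.15. Pdpk1, the kinase PDK1 that phosphorylates AKT, rose by 0.27 (SE 0.06, adjusted p = 0.00274), with a median of 80.1 CPM on chow and 100.3 on HFD. Mapkap1, the SIN1 subunit of mTOR complex 2, rose by 0.41 (SE 0.07, adjusted p = 0.000510), with 48.1 to 58.6 CPM on chow and 60.4 to 78.2 on HFD. Rictor, another subunit of that complex, fell by 0.39 (SE 0.11, adjusted p = 0.0138), and its adjusted p was 0.17 with the adipocyte score as a covariate. Rptor, the defining subunit of mTOR complex 1, rose by 0.28 (SE 0.06, adjusted p = 0.00306).

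Of 14 brakes on the pathway 1 was higher and 2 were lower, with a median of -0.01. Pik3ip1, an inhibitor of PI3K, fell by 1.17 (SE 0.35, adjusted p = 0.0193), but by 0.45 with an adjusted p of 0.27 when the adipocyte score was a covariate, and its adjusted p was 0.0540 with no filter on low counts. Grb10, the closest relative of Grb14, rose by 0.33 (SE 0.10, adjusted p = 0.0233), with a median of 52.2 CPM on chow and 65.9 on HFD. Its adjusted p was 0.0599 with the lymphoid score as a covariate and 0.0843 in libraries with that score under 4. It was 0.0892 in the libraries whose names are marked merged and 0.24 with the adipocyte score as a covariate.

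Of 19 AKT effectors and genes of GLUT4 traffic 4 were higher and 4 lower, with a median of -0.04. Slc2a4, which encodes GLUT4 itself, fell by 0.76 (SE 0.10, adjusted p = 0.000160), with 252 to 396 CPM on chow, 135 to 211 on HFD and no overlap. Vamp2, the vesicle SNARE of GLUT4 vesicles, fell by 0.45 (SE 0.07, adjusted p = 0.000449), with 71.5 to 90.4 CPM on chow and 47.5 to 68.8 on HFD, also without overlap. Gsk3b, the kinase that AKT switches off to release glycogen synthesis, rose by 0.46 (SE 0.08, adjusted p = 0.000676), with 86.0 to 108 CPM on chow and 115 to 155 on HFD. Foxo6, a relative of Foxo1 at 0.84 TPM on average, fell by 2.88 (SE 0.50, adjusted p = 0.000733), with 0.43 to 2.33 CPM on chow and 0 to 0.28 on HFD. Foxo1 and Tbc1d4, the members that AKT acts on directly, did not pass the test.

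Of 11 FOXO target genes 1 was higher and 1 lower, with a median of -0.04. Cdkn1b, the cell cycle inhibitor p27, fell by 0.73 (SE 0.15, adjusted p = 0.00269), with a median of 49.9 CPM on chow and 27.7 on HFD. Sesn3, a sestrin, rose by 0.26 (SE 0.09, adjusted p = 0.0431), and this call was lost in 11 of the 16 fits that each left out 1 library.

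Of 6 genes that insulin induces in fat 5 were lower on HFD and none was higher, with a median of -0.89. Over all genes 2644 of 16549 were lower, but the list was chosen with earlier results of these data known. Acly, ATP citrate lyase, fell by 2.38 (SE 0.28, adjusted p = 7.6e-05), with a median of 1812 CPM on chow and 350 on HFD. Fasn, fatty acid synthase, fell by 1.83 (SE 0.23, adjusted p = 0.000108), with 5013 to 15030 CPM on chow and 2068 to 4746 on HFD. Mlxipl, the glucose-sensing factor ChREBP, fell by 1.30 (SE 0.19, adjusted p = 0.000264), and Srebf1, which encodes SREBP1, fell by 0.49 (SE 0.11, adjusted p = 0.00406). Srebf1 overlaps exons of Rai1 and Mir6922, which held 9726 counts together against 123731, and strand was not used. These genes also respond to dietary fat and carbohydrate, and the part of insulin in their levels was not tested. The mean beige adipocyte score was also lower on HFD, from 4.91 in WT and 5.75 in KO on chow to 2.63 and 2.53 on HFD.

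**Figure D5:**
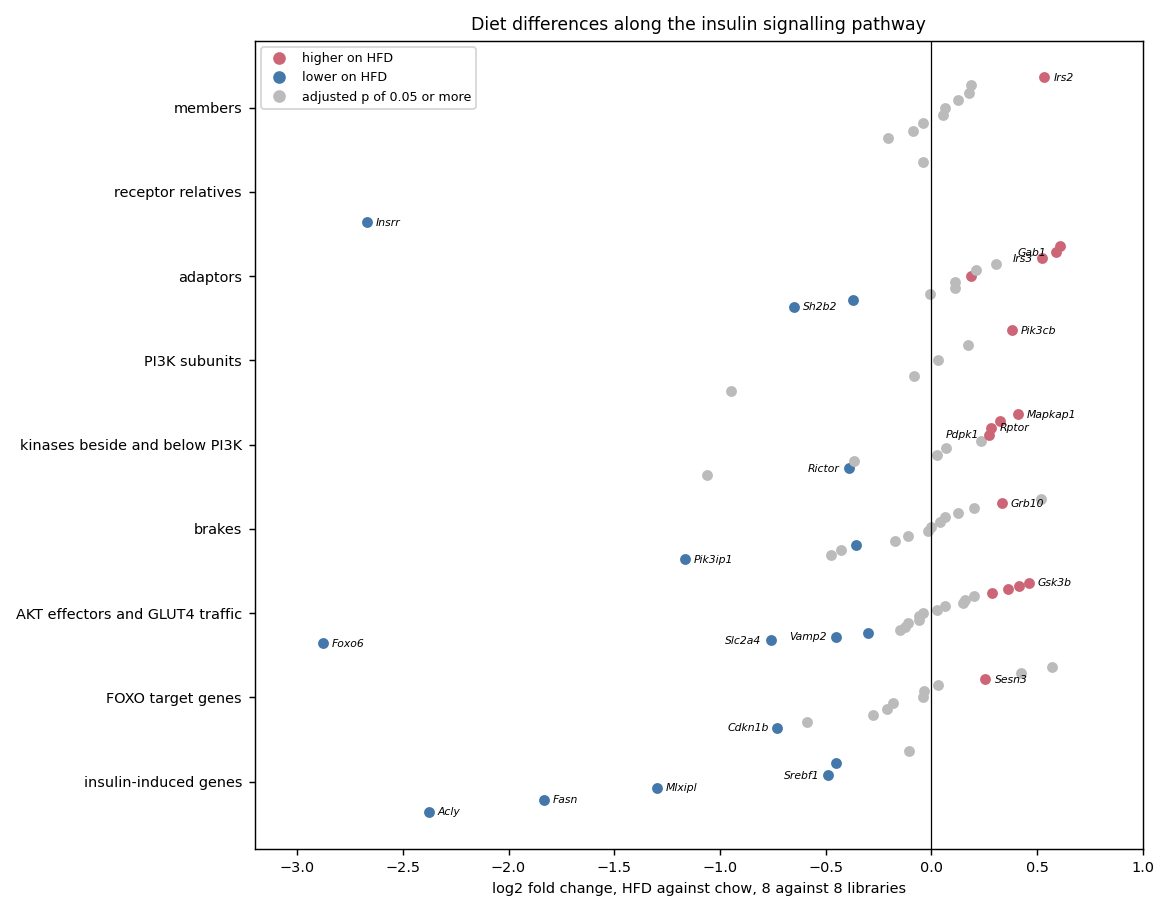
Log2 fold change on HFD over both genotypes (horizontal axis) for the 9 members and the 78 tested pathway genes, in rows by role; red and blue points had an adjusted p under 0.05. Members cluster between -0.21 and 0.19 apart from Irs2, while Slc2a4, Fasn and Acly reach -0.76, -1.83 and -2.38.

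The genes whose log2 CPM followed each member most closely over the 16 libraries are given as a description, with Pearson's r. They were sought among 13129 genes, over libraries that differed in depth, diet and cell makeup. The part of these differences in r was not tested. Insr followed Sec62 (r = 0.94), Cat (0.89) and Rab6a (0.87), and Grb14 followed Pkd2 (0.91), Aph1b (0.90) and Vegfd (0.90). Akt1 followed Rps2 (0.91), Ube2z (0.85) and Insyn1 (0.85), whereas Akt2 followed Ak3 (0.88), Dcaf11 (0.86) and Hoxc8 (0.83). Irs2 followed Celf2 (0.83), Ints12 (0.82) and Apc (0.82), and its paralogue Irs1 followed Abca8a, Irx1 and Mbd5 (0.79, 0.79 and 0.78). Tbc1d4 followed Nfatc3 (0.85), Smc3 (0.80) and Gapvd1 (0.79). Pik3r1 followed Rab30, Bcs1l and Atp6v1g1 (0.82, 0.82 and 0.80), and Foxo1 followed Zranb2, Txlng and Ramac (0.78, 0.78 and 0.74). No gene appeared in the closest 3 of more than 1 member.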

How the data were processed

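Per the submitters' processing notes, the authors aligned reads with STAR 2.7.3a to GRCm38.p6, counted them with featureCounts 2.0.3 and compared genotypes with DESeq2. Per the file header, fragments were counted over Ensembl 102 genes with strand not used. The deposited values used here are raw counts per gene; the authors' deposited log2 fold changes and adjusted p-values were read for the genotype comparisons only, and the deposited normalized values were not used. Library names mark 12 libraries as merged, without saying what was merged, and name a single lane for each of the other 4.

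Genes were filtered by filterByExpr, scaled by TMM and tested with edgeR 4.0.16 (R 4.3.3), in 1 fit of 4 group means over 16 libraries, for 7 comparisons, each adjusted over all genes. CPM use TMM-scaled totals, and log2 CPM a prior count of 2. In the smallest library 1 CPM was 14.1 counts. TPM use the deposited gene lengths. Alternatives were limma 3.58.1, DESeq2 1.42.0, other scaling, filters, thresholds, covariates, a replicate block and single libraries left out. The fitting code was tested on simulated data.

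The 9 members and the lists were chosen with earlier results of these data known. Named pathway genes are up to 4 called genes a list by adjusted p over both genotypes, filled to 2 by abundance; some are not reported here. The E-box and cAMP motifs were added after the data were seen. Replicates are labelled as separate animals of a group. Protein sequences were not used here.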

Additional observations from a re-analysis of the deposited data

Results flagged for a closer look

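In groups of 4 libraries, 1 library stood apart from the other 3 by more than Dixon's 95% limit in 6 of 136 groups tested, 1 of them among the 36 member groups. Chance flags about 1 in 20 groups (5%). Among members, Akt1 in KO chow 1 had 127.4 CPM, and the nearest of its group had 97.31. Srebf1 had 651.1 CPM in KO chow 2 (nearest 534.9) and Sh2b2 had 80.43 CPM in the same library (nearest 64.29). Mlxipl had 73.79 CPM in WT HFD 1 (nearest 62.04). Insrr had 1.274 CPM in KO HFD 1 (nearest 0.1335), and Foxo6 had 0.2789 CPM in KO HFD 4 (nearest 0.1416). These Foxo6 values are only a few counts, since 1 CPM was 14.1 to 16.5 counts over the libraries, so counting error is large there.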

How the results depend on the processing

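The count of members called for diet over both genotypes was 1 (Irs2) and became 0 with limma-voom with sample quality weights (adjusted p = 0.0860), with the adipocyte score as a covariate (0.113) and in libraries with a lymphoid score under 4 (0.145). In the same order these settings called 6363 of 16549, 4168 of 16549 and 3544 of 16436 genes, against 5471 in the main fit. The member count became 2 in the libraries whose names are marked merged, where Pik3r1 was -0.42 (adjusted p = 0.0484). In all, 4111 of 17230 genes were called there. With libraries left out in turn the member count ranged from 0 (without KO HFD 4, with 4771 of 16919 genes called) to 1. Irs2 kept its direction in all 30 alternatives, from 0.41 to 0.67, and was called in 25. In KO the member count was 0 and became 1 (Irs2) with DESeq2 and with a threshold of 0.10. Those settings called 2837 and 3460 of 16549 genes, against 2071 in the main fit. With libraries left out in turn the member count in KO ranged from 0 to 1, being 1 without WT chow 4 or KO HFD 2 (0.87, adjusted p = 0.0392). In all, 2365 of 16765 genes were called without WT chow 4 and 745 of 16888 without KO HFD 2. For diet in WT, the genotype comparisons and the interaction the member count stayed 0 in every alternative run. Diet in WT had between 225 and 3366 called genes in all in these runs. Each genotype run called 0 or 1 gene in all and each interaction run 0, so their 0 members say little about the members. No called result reversed.

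Same-numbered libraries of different groups did not deviate together (median r = -0.17 over 24 pairs, against 0.06 over 72 others), so the numbers were taken as names only. This check and the block use the replicate numbers of the labels; a deposited sample list numbers the chow animals in another order, and that numbering was not tested. With the replicate block 0 members and 4646 of 16549 genes were called for diet over both genotypes, and Irs2 was 0.53 (adjusted p = 0.0501). The count of 31 called pathway genes ranged from 27 to 41 over all alternatives. The cause of these shifts was not tested. With 4 libraries a group, the median half-width of the 95% interval over all genes was 0.43 for 1 diet and 0.31 over both, on the log2 scale.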
